A study of Mus musculus with 6 samples.

Results

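Nqo1, Gclc, Gclm and Srxn1 are 4 antioxidant genes of the mouse, and the binding of a tethered Nrf1-MafG heterodimer around their starts is described here from ChIP-seq, the sequencing of chromatin immunoprecipitated with an anti-MafG antibody. Their members are all summits inside a 40-kb window around each gene start in the mm9 assembly. A summit is the single base of highest enrichment in a called peak. The windows were chr8:109907000-109947000 for Nqo1, chr9:77582000-77622000 for Gclc, chr3:121928000-121968000 for Gclm and chr2:151911000-151951000 for Srxn1. They held 12 of the 11322 summits in the 4 lists: 0 of 24 in vehicle replicate 1, 3 of 828 in vehicle replicate 2, 4 of 3894 in MG132 replicate 1 and 5 of 6576 in MG132 replicate 2.

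All libraries came from embryonic fibroblasts of the genotype MafF-/-::MafG-/-::MafK-/- that express T-N1G, the tethered heterodimer. By that genotype T-N1G is the only source of MafG for the antibody, and both groups lack the 3 small Maf genes alike. The vehicle group had 2 ChIP libraries from cells given vehicle for 4 h, and the MG132 group had 2 from cells given 1.0 µM MG132, a proteasome inhibitor, for 4 h. Another 2 libraries of unprecipitated input chromatin have no list analysed here. The labels do not say from which promoter T-N1G was expressed, whether the line was 1 clone, or whether replicates were separate cultures. The spread between replicates may therefore be technical, and p-values apply only to these libraries. There is no library from cells without T-N1G among them, and summit lists cannot check the labelled cell type.

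Nrf1 belongs to the cap'n'collar family of transcription factors, and the proteasome keeps it low in unstressed cells. It binds DNA as a heterodimer with a small Maf protein, at antioxidant response elements, and shares this mode of binding with its relative Nrf2, for which the 4 genes are textbook targets. Gclc encodes the catalytic and Gclm the modifier subunit of glutamate-cysteine ligase, the rate-limiting enzyme of glutathione synthesis. Srxn1 encodes sulfiredoxin, which restores over-oxidised peroxiredoxins. Nqo1 encodes a quinone reductase that uses NAD(P)H.

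Promoter sequence is shown first, because the strongest summit of 3 of the genes lay close to the window midpoint. RefSeq's promoter table, of build GRCm38.p6, held 3 of the 4 genes and does not list Gclc. The build differs from that of the summits, so summits cannot be placed on these letters. The 250 bases before the gene start are at chr2:152105274-152105523 (plus strand) for Srxn1, chr3:122245307-122245556 (plus strand) for Gclm and chr8:107403206-107403455 (minus strand) for Nqo1, all in GRCm38.p6. They are written 5′ to 3′ along the gene. Capitals mark matches, on either strand, to TGACNNNGC or TGAGNNNGC, the core of the antioxidant response element, or to TGAGTCA, the core shared by Maf and AP-1 sites, a motif added after the sequences had been seen.
Srxn1: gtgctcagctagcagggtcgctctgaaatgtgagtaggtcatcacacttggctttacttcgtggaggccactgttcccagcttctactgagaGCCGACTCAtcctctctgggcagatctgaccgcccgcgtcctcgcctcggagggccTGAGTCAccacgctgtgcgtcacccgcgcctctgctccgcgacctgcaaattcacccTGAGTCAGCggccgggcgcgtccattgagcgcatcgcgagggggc
Gclm: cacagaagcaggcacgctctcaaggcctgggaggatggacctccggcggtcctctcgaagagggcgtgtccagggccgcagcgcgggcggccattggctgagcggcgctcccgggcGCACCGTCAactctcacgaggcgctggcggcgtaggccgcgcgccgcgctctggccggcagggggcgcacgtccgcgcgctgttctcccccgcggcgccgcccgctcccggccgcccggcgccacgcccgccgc
Nqo1: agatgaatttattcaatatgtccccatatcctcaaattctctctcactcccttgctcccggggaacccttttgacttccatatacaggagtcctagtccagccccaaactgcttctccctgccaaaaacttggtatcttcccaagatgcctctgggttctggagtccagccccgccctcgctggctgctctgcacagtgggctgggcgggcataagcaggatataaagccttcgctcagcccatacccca

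The Srxn1 promoter held 2 matches to TGAGNNNGC, one 45 to 37 bases before the start, which reads TGAGTCAGC, and one on the other strand 158 to 150 bases before it, which reads TGAGTCGGC. It also held TGAGTCA in 2 places, from 102 to 96 and from 45 to 39 bases before the start, the latter inside the first match. The Gclm promoter held 1 match, to TGACNNNGC, on the other strand 134 to 126 bases before the start, which reads TGACGGTGC. The Nqo1 promoter had no match to any of the 3 motifs, which says only that these letters are not in the 250 bases before that start. Of the 32851 promoter entries of this length in the table, 10.2% held TGACNNNGC, 14.4% held TGAGNNNGC, 23.0% held either and 4.46% held TGAGTCA. Srxn1 was among the 55 entries (0.167%) with at least 2 TGAGTCA. That motif was added after the sequences had been seen, and 2 is the count of Srxn1 itself. The 0.167% is therefore no measure of how unusual Srxn1 is. All these matches and shares are descriptions of letters and do not show where the heterodimer bound.

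Of 31 other antioxidant genes (glutathione, thioredoxin, NADPH supply, haem and iron, and quinone and aldehyde reduction), 26 were in the promoter table. Among the 26, 10 had TGACNNNGC or TGAGNNNGC, among them Slc7a11 (the cystine importer), Txnrd1 (thioredoxin reductase), Prdx1 (a peroxiredoxin) and G6pdx (the first enzyme of the pentose phosphate pathway). Over all 27025 genes of the table the share was 25.7%. TGAGTCA was found in 2 of the 26, Prdx1 and Gstp1, against 5.16% of all genes. Their binding was not analysed here, because no mm9 gene positions were at hand for them.

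After MG132, every one of the 4 genes had a summit in both libraries. In vehicle, Nqo1, Gclc and Gclm each had 1 in replicate 2, Srxn1 had none, and replicate 1 had none for any of the genes. The number of genes with a summit was therefore 0 and 3 in vehicle replicates 1 and 2. In MG132 replicates 1 and 2 it was 4 and 4. The groups do not overlap, but with scores of at least 10 they touch. MG132 replicate 1 then loses Srxn1 (score 7.61) and holds the same 3 genes as vehicle replicate 2. As background, all consecutive 40-kb tiles of the genome up to each chromosome's last summit held a summit in 0.0335% and 1.23% of cases in vehicle replicates 1 and 2 and in 5.57% and 8.91% in MG132 replicates 1 and 2. Both MG132 lists had one in 4.90% of 65719 tiles, and 23.7% of those tiles (1.16% of all tiles) also had one in vehicle replicate 2. The tiles include stretches without genes, so they are a low yardstick for windows around gene starts.

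The mean number of genes with a summit was 4.0 ± 0 (SD, n = 2) with MG132 and 1.5 ± 2.12 (SD, n = 2) with vehicle. The difference of 2.5 genes had an exact two-sided permutation p of 0.333, the smallest value that 2 libraries against 2 allow. For the number of summits, 4 and 5 with MG132 against 0 and 3 with vehicle, the difference was 3.0 with the same exact permutation p of 0.333. The size of both differences depended on which vehicle library was kept. Without vehicle replicate 1, whose list is short, the differences were 1.0 gene and 1.5 summits. Without vehicle replicate 2 they were 4.0 genes and 4.5 summits. Read depth is unknown from these lists, and the number of summits called grows with depth and enrichment, so list length and treatment cannot be told apart at a gene with no summit.

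**Figure D1:**
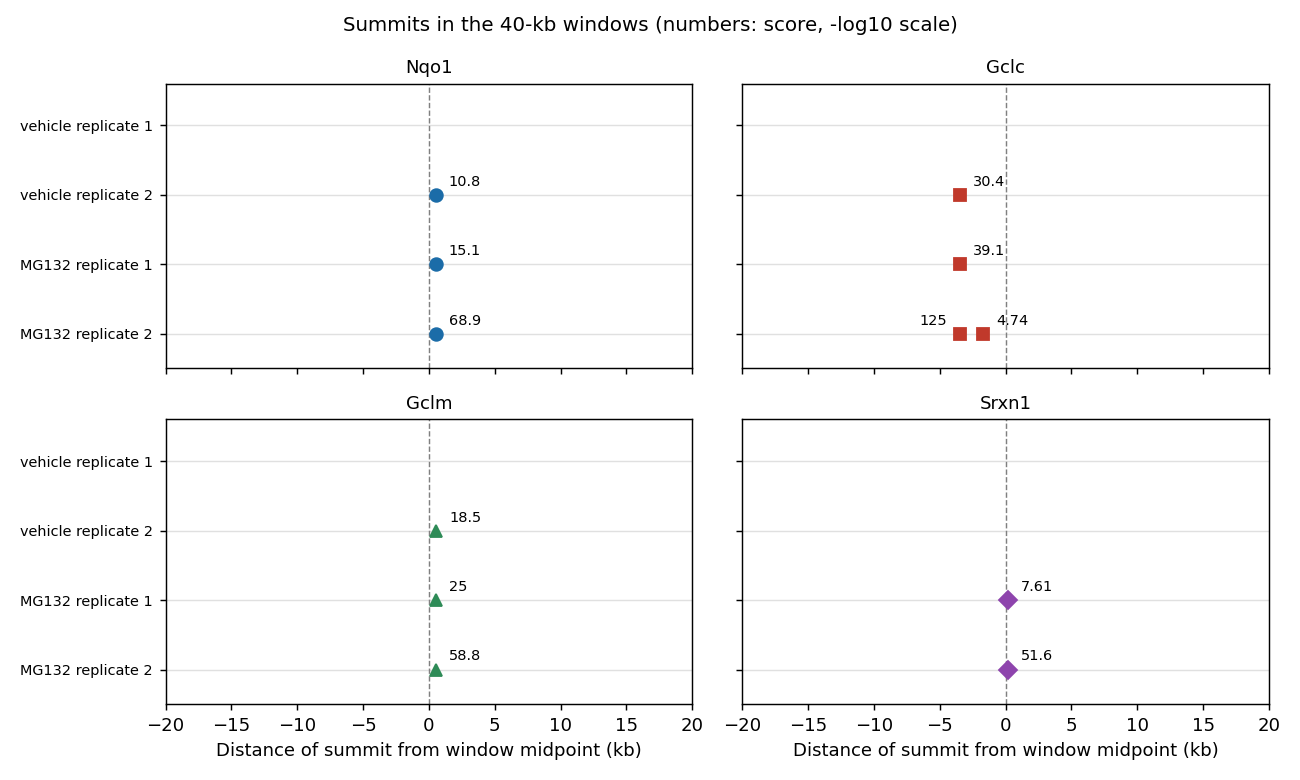
Position of every summit in the 4 windows, as distance from the window midpoint in kb (x axis), for each library (rows), with the score of each summit, on a −log10 scale, printed beside it. The main Gclc summit lies 3.45 to 3.46 kb below the midpoint in 3 libraries, a weaker one lies 1.70 kb below it in MG132 replicate 2, those of the other 3 genes lie within 0.6 kb of it, and vehicle replicate 1 has none.

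Gclc, the catalytic subunit, had the highest score of the 4 genes in each of the 3 lists that called any. Its main site was at base 77598552 of chromosome 9 in vehicle replicate 2, at 77598555 in MG132 replicate 1 and at 77598537 in MG132 replicate 2, so the 3 summits lay within 18 bp. This is 3.45, 3.45 and 3.46 kb below the window midpoint, and it was the only main site of the 4 genes more than 1 kb from it. The score, taken here as a −log10 value for the peak, was 30.4 in vehicle replicate 2 (rank 81 of 828). It was 39.1 in MG132 replicate 1 (rank 318 of 3894) and 125 in MG132 replicate 2 (rank 89 of 6576). Expressed as the percentage of a list's summits with a lower score, the site stood at the 90.2, 91.8 and 98.6 percentile. It was thus within the top 9.78%, 8.17% and 1.35% of the respective list.

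A weaker Gclc summit was called in MG132 replicate 2 alone, at base 77600301, which is 1.70 kb below the midpoint. Its score of 4.74 was at the 10.9 percentile (rank 5853 of 6576, a score shared by 6 summits). In that list 3.50% of summits had another within 2 kb, as these Gclc summits did, and 51.4% of its summits were found in MG132 replicate 1 within 200 bp. The latter share covers summits of all scores. Sites found in both MG132 lists had a median percentile of 72.0 in replicate 2, so it is no yardstick for a summit this weak. Both MG132 lists were otherwise without a second summit in any of the windows.

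Gclm, the modifier subunit, was called 0.562 to 0.579 kb above its window midpoint on chromosome 3. The summits were at base 121948579 in vehicle replicate 2, 121948562 in MG132 replicate 1 and 121948566 in MG132 replicate 2, a span of 17 bp. The scores were 18.5 (rank 172 of 828), 25.0 (rank 638 of 3894) and 58.8 (rank 381 of 6576) in that order, which put it at the 78.9, 83.0 and 94.1 percentile. Gclm came second to Gclc in vehicle replicate 2 and MG132 replicate 1, and after Nqo1 as well in MG132 replicate 2. The nearest summit outside the window lay 50.7 kb above the midpoint in each of those 3 lists, the closest neighbour of any of the genes.

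Nqo1 was called 0.526 to 0.543 kb above its midpoint on chromosome 8, at base 109927527 in vehicle replicate 2, 109927526 in MG132 replicate 1 and 109927543 in MG132 replicate 2. Nqo1 is on the minus strand in the RefSeq table, so higher positions are on its upstream side. The midpoint may not be the exact start, so the summit is not placed relative to the start. The vehicle and MG132 replicate 1 summits were 1 bp apart. The scores were 10.8 (rank 351 of 828), 15.1 (rank 1347 of 3894) and 68.9 (rank 287 of 6576), at the 57.5, 65.4 and 95.6 percentile. Nqo1 was thus mid-list in vehicle replicate 2, in the upper part of MG132 replicate 1 and near the top of MG132 replicate 2, a range of 38.1 percentiles.

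Srxn1, which encodes sulfiredoxin, was called in both MG132 lists and in neither vehicle list. Its summits were at base 151931161 in MG132 replicate 1 and 151931207 in MG132 replicate 2 on chromosome 2, 0.161 and 0.207 kb above the window midpoint. The score in MG132 replicate 1 was 7.61, which 161 summits shared at ranks 2815 to 2975 of 3894, and 51.6 in MG132 replicate 2 (rank 495 of 6576). The percentiles were 23.6 and 92.5, so the site was weak in one list and among the strong ones in the other. Srxn1 had the lowest score of the 4 genes in both MG132 lists. The nearest other summit, 118.8 kb above the midpoint, was called in vehicle replicate 2 and in both MG132 lists.

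**Figure D2:**
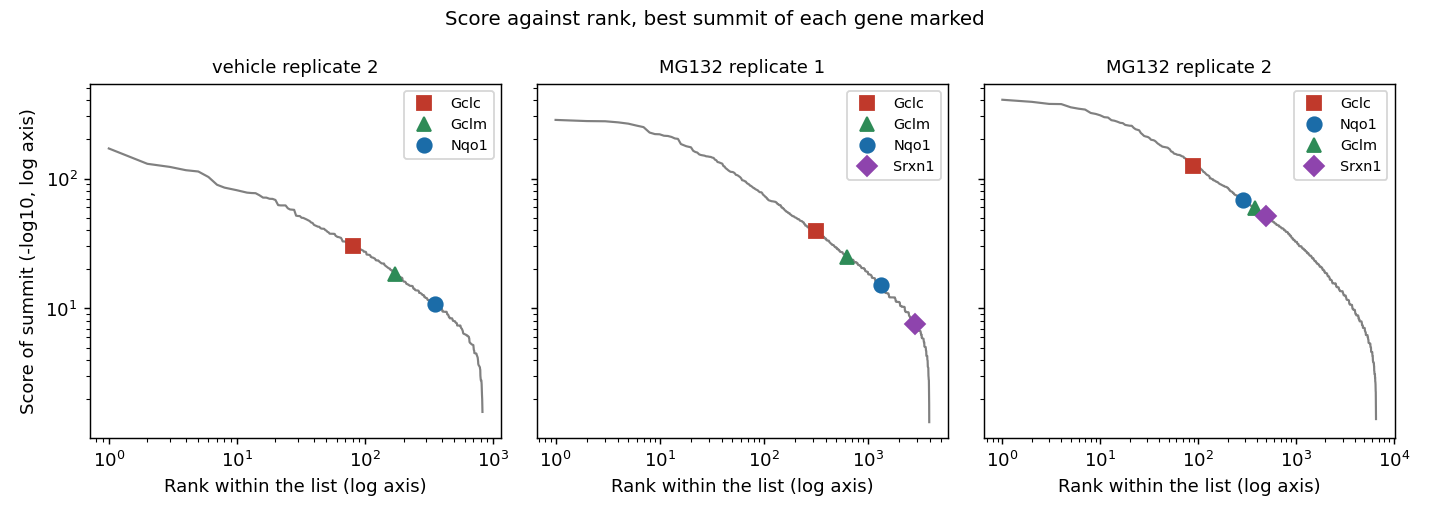
Score (y axis, −log10 values on a log axis) against rank (x axis, log axis) for all summits of the 3 lists with members (grey lines), with the best summit of each gene marked. Gclc is the highest member in every panel, Srxn1 is absent from vehicle replicate 2 and lowest in both MG132 lists, and Gclm and Nqo1 change places in MG132 replicate 2.

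Read across lists, the order by score was Gclc, Gclm, Nqo1 in vehicle replicate 2, Gclc, Gclm, Nqo1, Srxn1 in MG132 replicate 1 and Gclc, Nqo1, Gclm, Srxn1 in MG132 replicate 2. The neighbours Gclm and Nqo1 changed places, so their order did not exceed the spread between libraries. Genes can be compared in this way only inside a list, and the 3 lists give no test of the order. Scores and ranks from lists of different length and unknown depth do not measure a change with treatment.

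The 4 main sites recurred between the MG132 replicates. All 4 summits of MG132 replicate 1 lay within 200 bp of one of replicate 2 (100%, exact Clopper-Pearson 95% interval 39.8 to 100), against 86.8% of that whole list. Conversely 4 of the 5 replicate 2 summits had a partner in replicate 1 (80.0%, 28.4 to 99.5), against 51.4% of the whole list. Those 4 stood at the 92.5 to 98.6 percentile of replicate 2. Sites found in both MG132 lists had a median percentile of 72.0 there, so recurrence went with score. The whole-list shares are not matched for score, and no matched share was calculated. The 2 summits of a site were 4 bp apart for Gclm, 17 bp for Nqo1, 18 bp for Gclc and 46 bp for Srxn1. Over all 3379 sites found in both MG132 lists the median was 14 bp, and 90.1% were closer than the 46 bp of Srxn1. The intervals cover counting error alone, and the 4 genes were chosen with earlier results of these data known.

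By mean percentile over the MG132 lists, 209 of the 3379 sites stood above Gclc, 472 above Gclm, 805 above Nqo1 and 1766 above Srxn1. The median percentile of the 4 sites was 74.2 in MG132 replicate 1 and 94.9 in replicate 2, against 53.5 and 72.0 over all 3379 sites. Each of the 4 stood higher in replicate 2, by 6.80 percentiles for Gclc, 11.1 for Gclm, 30.3 for Nqo1 and 68.9 for Srxn1, where the median over all sites was 9.01. For Srxn1, 66 sites (1.95%) had a larger difference in that direction. For Nqo1 it was 768 (22.7%), for Gclm 1568 (46.4%) and for Gclc 1830 (54.2%). The Srxn1 site is therefore one on which the replicates differ far more than on most. A percentile cannot pass 100, which bounds this difference for sites high in replicate 1, such as Gclc (91.8) and Gclm (83.0). The reasons for the differences at the 4 sites were not tested.

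**Figure D3:**
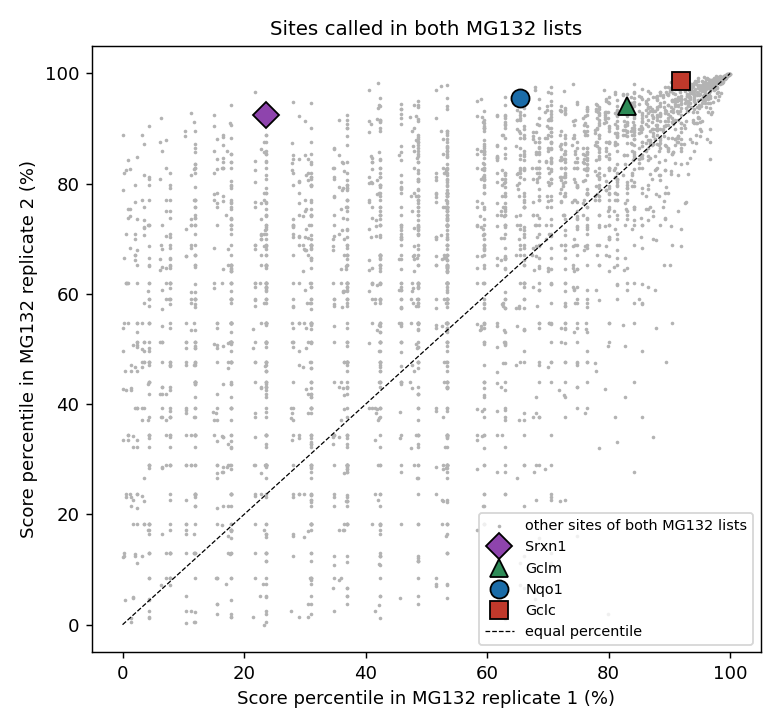
Score percentile in MG132 replicate 2 (y axis, %) against that in MG132 replicate 1 (x axis, %) for the 3379 sites called in both lists (grey points; columns of points are tied scores), with the main site of each gene marked and the line of equal percentile dashed. Srxn1 stands far to the upper left at 23.6 and 92.5, and Gclc sits close to the upper right corner.

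Of the 4 sites found in both MG132 lists, 3 were called in vehicle replicate 2 (75.0%, exact Clopper-Pearson 95% interval 19.4 to 99.4), against 22.6% of all 3379. None was called in vehicle replicate 1 (0 of 4), against 0.681%. The 4 genes were chosen with earlier results of these data known, so these shares give no test against all 3379 sites. The 22 summits of vehicle replicate 2 that had a partner in vehicle replicate 1 were mostly its strongest, with 20 of them ranked above the Gclc summit and 2 below it. Among the 100 summits nearest in rank to the Gclc summit of vehicle replicate 2, 2 had a partner in vehicle replicate 1. For Gclm it was 1 and for Nqo1 0. Absence of the 3 genes from vehicle replicate 1 was thus shared by nearly all summits of their rank.

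Each site can also be set beside summits of like score. In MG132 replicate 2, vehicle replicate 2 held a match for 93 of the 100 summits nearest in rank to Gclc (exact Clopper-Pearson 95% interval 86.1 to 97.1), 83 of those nearest to Nqo1 (74.2 to 89.8), 72 of those nearest to Gclm (62.1 to 80.5) and 64 of those nearest to Srxn1 (53.8 to 73.4). Most summits as strong as that of Srxn1 in this list were thus called in vehicle replicate 2, while Srxn1 was not. In MG132 replicate 1, by contrast, 8 of the 161 summits with the score of Srxn1 were called in vehicle replicate 2 (4.97%, 2.17 to 9.56). By its score there, a missing vehicle summit was the usual case. For the other genes the 100 summits nearest in rank were again used. In MG132 replicate 1, 62 had a match for Gclc (51.7 to 71.5), 29 for Gclm (20.4 to 38.9) and 16 for Nqo1 (9.43 to 24.7). Gclm and Nqo1 were both called in vehicle replicate 2, although most summits of their rank in MG132 replicate 1 were not. Most summits of their rank in MG132 replicate 2 were. The lists hold nothing below their threshold, so they do not show whether Srxn1 was free of the heterodimer in vehicle.

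**Figure D4:**
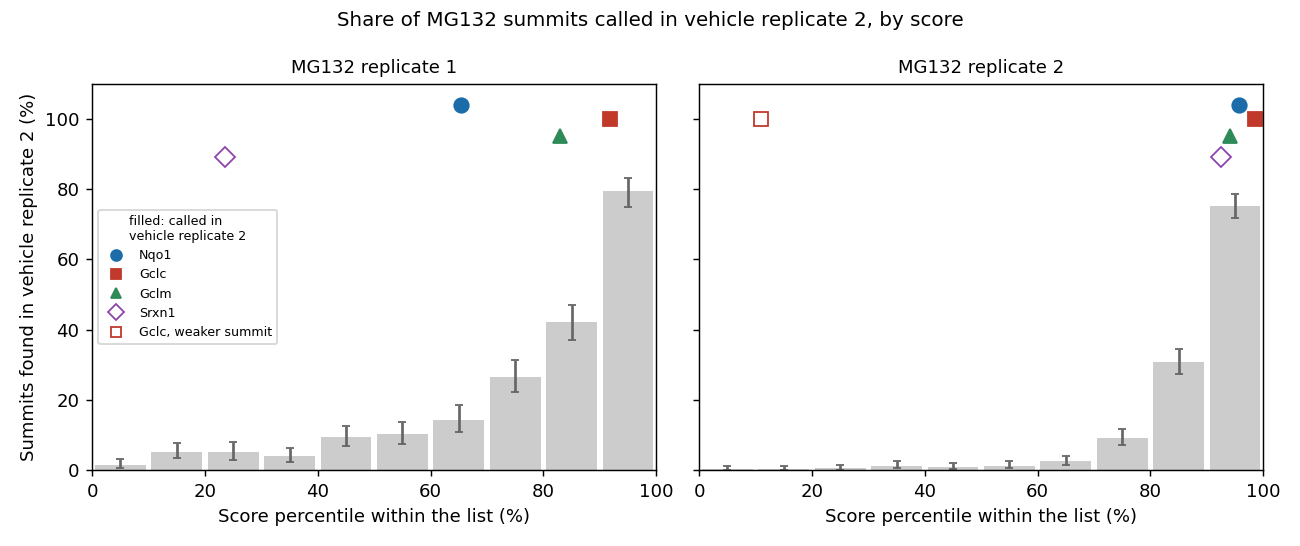
Share of MG132 summits with a summit of vehicle replicate 2 within 200 bp (bars, %, with exact 95% intervals) by score percentile within the list, in steps of 10. Symbols mark each member at its percentile, filled where it was called in vehicle replicate 2 (their height has no meaning). Srxn1 is open at 23.6 in MG132 replicate 1, where few summits were called in vehicle replicate 2. It is open again at 92.5 in MG132 replicate 2, where most were.

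For each gene the 2 most similar sites outside the windows were taken from those called in the same lists, by distance between within-list percentiles. They are named by the mm9 position of their MG132 replicate 2 summit, without a gene. For Gclc, over 3 lists, they were on chromosome 8 at 36195529 (rank 288 with MG132 in replicate 1, rank 210 in replicate 2) and on chromosome 4 at 15241702 (ranks 250 and 195). For Gclm they were on chromosome 8 at 47229440 (ranks 688 and 435) and on chromosome 5 at 32286587 (ranks 681 and 245). For Nqo1 they were on chromosome 15 at 98362881 (ranks 1360 and 230) and on chromosome 1 at 90925003 (ranks 1186 and 307). These 6 sites were 1.05 to 3.83 percentile units from their gene, among 739 candidates. For Srxn1, over the MG132 lists alone, they were on chromosome 10 at 66488867 (ranks 3013 and 216) and on chromosome 12 at 87483544 (ranks 2815 and 795), at 4.63 and 4.81 units among 2613 candidates.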

How the data were processed

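ChIP-seq used an antibody against MafG on chromatin fixed with formaldehyde, per the labels' protocols. The deposited files are one BED list of 1-bp summits per ChIP library, with a score per summit in column 5. The score was taken as the peak caller's −log10 of p or q, and the processing notes do not say which. Per the submitters' processing notes the build was mm9 and the tools MACS2 2.1.4, Bowtie2 2.2.9 and bcl2fastq 2.16.0.10. Not given in the sources used here are their options, the threshold, duplicate handling and the use of input. The lowest scores were 1.34 to 1.60 and read depth is unknown.

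Groups and replicate numbers came from the titles. Windows were taken as given in mm9, and their midpoint stands for the gene start. How near the midpoint lies to the start was not checked, because no mm9 annotation was at hand. Positions were written 1-based. Summits of different lists were matched within 200 bp. Sites found in both MG132 lists were mutual nearest summits. A percentile is the percentage of a list's summits with a lower score, and tied summits share the best rank. Tiles of 40 kb gave the background. Counts per library were compared by an exact permutation test. Shares carry exact 95% intervals. All summits of the 4 genes are named. The matching was run on simulated lists with planted partners closer than the match distance, which checks the code but not the choice of distance. The 4 genes, windows and other lists were chosen with earlier results of these data known. Gene positions of GRCm38.p6 were not carried to mm9. Scripts ran in Python 3.11.15 with SciPy 1.17.1, pandas 2.3.3, NumPy 2.4.6 and matplotlib 3.10.9.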

Additional observations from a re-analysis of the deposited data

How the results depend on the processing

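The difference in genes with a summit (2.5) was 2.5 with scores of at least 5, with windows of 10 or 5 kb to either side and with summits within 500 bp merged, and 2.0 with scores of at least 10 (exact permutation p = 0.667), where MG132 replicate 1 lost Srxn1. Leaving out 1 library gave 1.0 to 4.0 genes and 1.5 to 4.5 summits. In a fit with replicate number as block, the differences were again 2.5 genes and 3.0 summits, each with a sign-flip permutation p of 0.50, the smallest that 2 pairs allow, and 2 numbers cannot show whether they pair the libraries. The share of sites called in a vehicle list (75.0%) was 0% with vehicle replicate 1 alone and 75.0% with matches within 50 or 1000 bp. Percentiles among scores of at least 5 only, hence on shorter lists, were lower. In vehicle replicate 2 they were 50.1 for Nqo1 and 75.2 for Gclm. In MG132 replicate 1 they were 62.7 for Nqo1, 81.7 for Gclm and 17.7 for Srxn1, and in MG132 replicate 2 they were 95.1, 93.4 and 91.5. The other 25 of 33 percentile alternatives stayed inside the interval for counting error, which is no evidence of stability. Windows of 5 kb to either side cannot change a percentile, because it is taken over the whole list and every main summit lies within them. Removing low scores can only lower it. The unknown read depth limits what a missing summit can show.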
